A study of Solanum lycopersicum with 8 samples.

Results

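Micro-Tom tomato seedlings at 10 days of age were sampled with or without treatment with 5 μM Torin2, an inhibitor of the TOR kinase. The study's text says that Torin2 was given for 2 h, and the labels leave it without a time. There were 4 libraries from mock-treated seedlings, which received 0.1% DMSO, a solvent, and 4 libraries from Torin2-treated seedlings. All plants were wild type and grew at 25 °C on the same solid 1/2 MS medium. The 6 genes described here were chosen by identifier as the iron uptake genes of the root. They were *SlFER* (Solyc06g051550.5), *SlFRO1* (Solyc01g094910.3), *SlIRT1* (Solyc02g069200.3), *SlIRT2* (Solyc02g069190.5), *SlNRAMP1* (Solyc11g018530.2) and the nicotianamine synthase gene *SlCHLN* (Solyc01g100490). Of the 6 genes, 5 were found among the 34688 genes with values, and *SlCHLN* was not analysed here. The study's own annotation calls Solyc06g051550.5 *FIT*, the name of the Arabidopsis counterpart of *SlFER*, and calls Solyc11g018530.2 *NRAMP5*, described as a metal transporter specific to the root.

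Tomato takes up iron by a reduction strategy. Root epidermal cells acidify their surroundings, reduce ferric iron at the plasma membrane with a ferric-chelate reductase, the product of *SlFRO1*, and import the ferrous iron through ZIP transporters of the IRT type. NRAMP transporters also carry iron and other divalent metals. The bHLH transcription factor encoded by *SlFER* is needed to switch on this machinery when iron is scarce, and nicotianamine chelates iron inside the plant. Which of these transcripts moved within hours of TOR inhibition, and in which direction, is the question of the comparison.

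The 8 libraries held between 36989257 and 39868131 fragments each. Levels are given in FPKM, fragments scaled to the length of the gene and to the depth of the library, so that they can be set side by side between genes. The libraries were split into 2 kinds by the sign of the first component of their deviations from the condition means. The component held 53.6% of the variance of these deviations. Both signs were bound to occur in each condition, and whether the libraries form separate groups was not tested. Mock replicates 1 and 2 and Torin2 replicates 2 and 4 were of the first kind, and the other 4 libraries were of the second. Each kind held 2 libraries of each condition, so that fold changes could also be taken within a kind. The labels do not say that the replicates of a condition came from separate plants or plates, although the study calls them biological replicates.

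Torin2 lowered the transcripts of the regulator *SlFER* and the transporter *SlNRAMP1*, whereas the level of the reductase gene *SlFRO1* was higher in every Torin2 library. *SlIRT1* and *SlIRT2* were close to silent in both conditions. A gene was called where its limma p, adjusted by Benjamini and Hochberg's method over 22330 genes, was under 0.05 and its log2 fold change was beyond -1 or 1. Of the 5 genes found, 4 passed the filter of a mean of 0.1 FPKM and 2 of them were called lower. None was called higher with limma, although 1, *SlFRO1*, had an unadjusted p under 0.05 and was called by limma-voom. An unadjusted p under 0.05 was reached by 6502 of the 22330 genes tested, in either direction. Over all genes tested 8.32% were called, 3% lower and 5.31% higher, and 12.6% passed the adjusted p alone. The 4 mock and 4 Torin2 libraries did not overlap for *SlFER*, *SlFRO1* and *SlNRAMP1*, 3 of the 4 genes that passed the filter, against 19.2% of all genes tested. All genes tested had a median log2 fold change of 0.16.

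**Figure D1:**
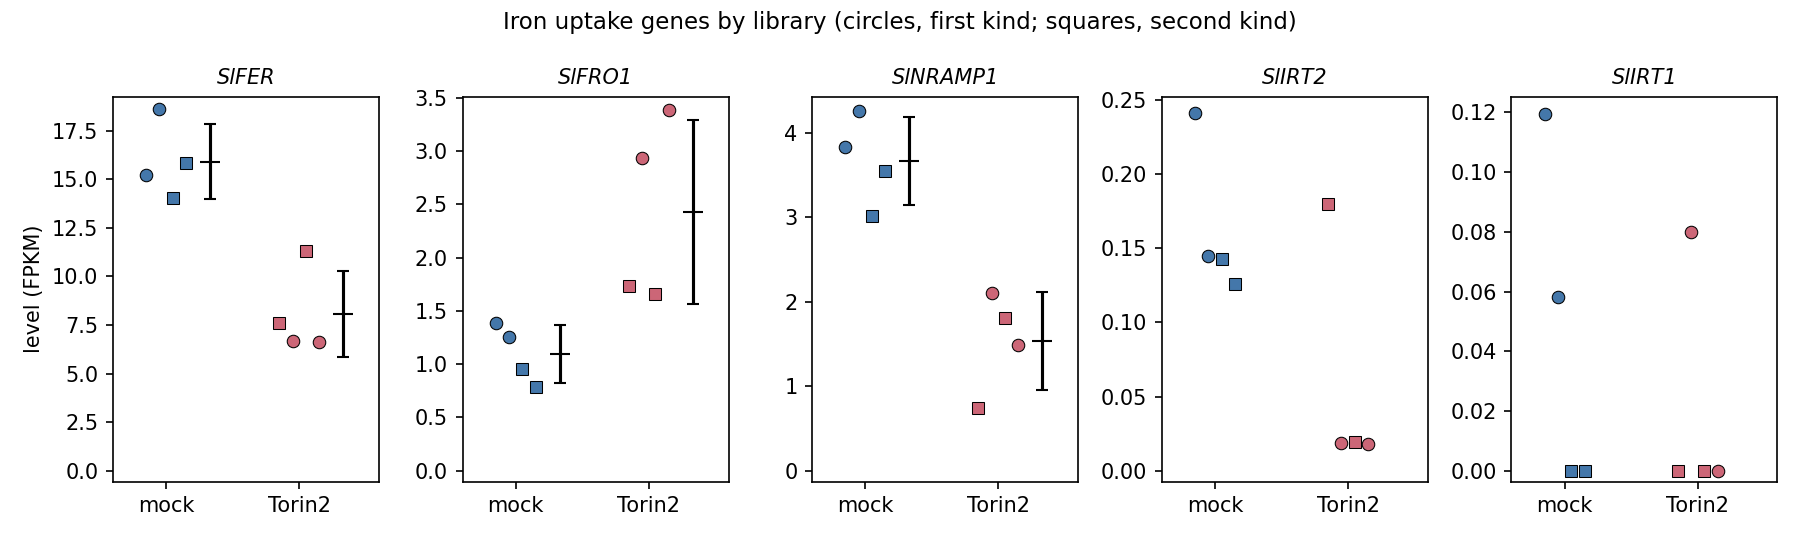
Level in FPKM (y axis) of the 5 iron uptake genes in each mock and Torin2 library. Points are libraries, the dash and bar beside them are the mean ± SD of 4 libraries, and no bar is drawn for *SlIRT2* and *SlIRT1*, where it would pass below 0. *SlFER* and *SlNRAMP1* are lower and *SlFRO1* is higher in all 4 Torin2 libraries than in any mock library.

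*SlFER* was measured at 15.2, 18.6, 14.0 and 15.8 FPKM in mock replicates 1 to 4. In Torin2 replicates 1 to 4 it was measured at 7.62, 6.65, 11.3 and 6.61 FPKM. The highest Torin2 library, replicate 3, thus lay below the lowest mock library, and the other 3 Torin2 libraries lay close to each other. The mean fell from 15.9 to 8.04 FPKM, with SDs of 1.95 and 2.21 (n = 4 each). On the log2 scale *SlFER* fell by 1.003 ± 0.24 (standard error, limma adjusted p = 0.0141). Mock libraries held 1116 to 1466 fragments of this gene and Torin2 libraries 508 to 834. The exact permutation test, two-sided over 70 assignments, gave p = 0.0286, the smallest p that 4 against 4 allow. Only 840 of the genes tested (3.76%) had a lower log2 fold change.

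The fall of *SlFER* lay close to the cut-off on the fold change. With a pseudocount of 1 FPKM in place of 0.1 it was -0.92, and the call of *SlNRAMP1* was lost as well, at -0.90. It was called in 3 of the 8 fits with a single library left out. The call was lost without mock replicate 2 or 4 and without Torin2 replicate 1, 2 or 4, with log2 fold changes between -1.18 and -0.92 over the 8 fits and adjusted p-values up to 0.0522. Within the first kind of library the log2 fold change was -1.33 and within the second -0.68. The difference of 0.65 between these values did not pass a test of the interaction (limma unadjusted p = 0.0584, adjusted p = 0.60 over all genes tested).

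*SlNRAMP1*, which encodes a metal transporter of the NRAMP family, showed the larger fall. Its level was 3.84, 4.26, 3.02 and 3.54 FPKM in mock replicates 1 to 4. It was 0.749, 2.10, 1.81 and 1.49 FPKM in Torin2 replicates 1 to 4. No Torin2 library reached the mock range, and Torin2 replicate 1 was the lowest of all. The mean fell from 3.67 to 1.54 FPKM, with SDs of 0.521 and 0.583 (n = 4 each). On the log2 scale *SlNRAMP1* fell by 1.28 ± 0.32 (standard error, limma adjusted p = 0.0191, exact permutation p = 0.0286), and 2.07% of the genes tested had a lower log2 fold change. It was covered by 223 to 311 fragments in the mock and 55 to 149 in the Torin2 libraries.

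The fall of *SlNRAMP1* was seen within both kinds of libraries, with log2 fold changes of -1.15 and -1.41. With single libraries left out it ranged from -1.45 to -0.99. The call was lost without mock replicate 2, mock replicate 4 or Torin2 replicate 1, with adjusted p-values of 0.0568, 0.0601 and 0.0321, where those of the 8 fits ranged from 0.0118 to 0.0601.

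*SlFRO1*, the gene of the ferric-chelate reductase, differed in the other direction. The mock libraries gave 1.39, 1.26, 0.957 and 0.784 FPKM in replicates 1 to 4. The Torin2 libraries gave 1.73, 2.93, 1.66 and 3.38 FPKM in replicates 1 to 4. Every Torin2 library was above every mock library, and Torin2 replicates 2 and 4, both of the first kind, were well above the other 2. The means were 1.10 FPKM without and 2.43 FPKM with Torin2, with SDs of 0.275 and 0.864 (n = 4 each), on 74 to 127 and 146 to 313 fragments per library.

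The log2 fold change of *SlFRO1* was 1.04, with a 95% interval from 0.34 to 1.75. Its limma adjusted p of 0.0507 just missed the threshold, so that the gene was not called (exact permutation p = 0.0286). Libraries of the first kind alone gave 1.19 and those of the second kind 0.89, and 6.85% of the genes tested had a higher log2 fold change. Part of the spread inside each condition followed the kind of library: with the kind as a covariate the adjusted p was 0.00133. The kinds themselves were defined from the spread of these libraries, so that this p tends to be too small. Over the 18 alternatives the adjusted p ran from 0.00133 to 0.162. Both cut-offs were passed by *SlFRO1* in 5 of them, among them the fits without Torin2 replicate 1 or 3.

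**Figure D2:**
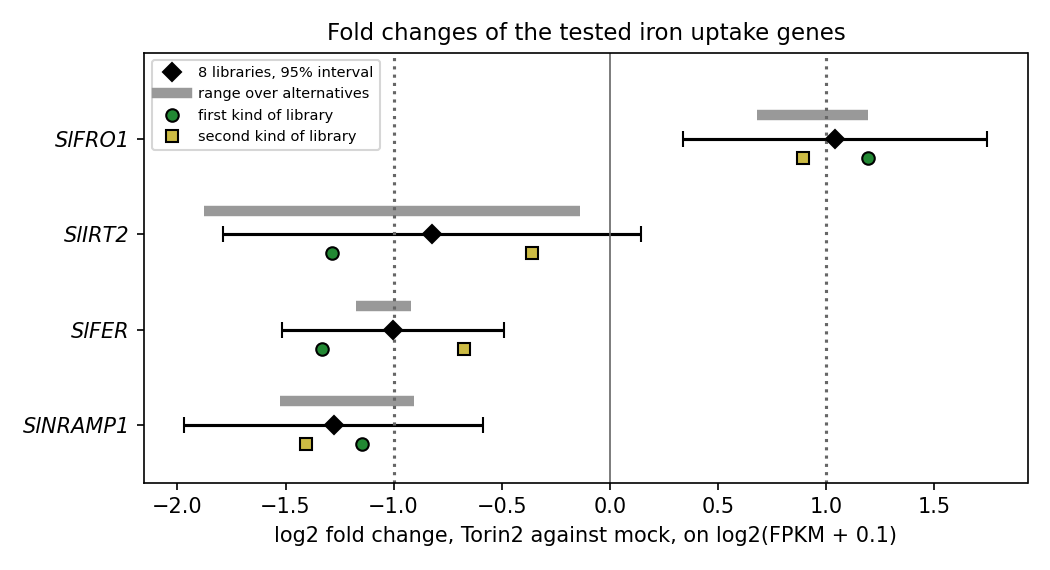
Log2 fold change (x axis, Torin2 against mock, on log2(FPKM + 0.1)) of the 4 iron uptake genes that were tested. Diamonds and black bars are the value over 8 libraries with its 95% interval, grey bars the range over the alternative settings, and circles and squares the value within the first and the second kind of library, with dotted lines at the cut-offs of -1 and 1. The interval of *SlIRT2* spans 0, and those of *SlFER*, *SlNRAMP1* and *SlFRO1* do not.

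The levels of these genes were also set side by side within each library. The ratios restate the values given above and are not separate evidence of a change. The level of *SlFER* was between 10.9 and 20.2 times that of *SlFRO1* in the mock libraries, with a median of 14.7. In the Torin2 libraries it was between 1.96 and 6.82 times as high, with a median of 3.33. The ratio of *SlFER* to *SlNRAMP1* was between 3.96 and 4.64 in the mock libraries and spread from 3.16 to 10.2 in the Torin2 libraries, so that the 2 conditions overlapped for this pair. *SlFRO1* was below *SlNRAMP1* in all 4 mock libraries, at 0.221 to 0.362 times its level. In the Torin2 libraries it was above *SlNRAMP1* in all but replicate 3, with ratios from 0.915 to 2.32. In mock-treated seedlings the levels ran in the order *SlFER*, *SlNRAMP1*, *SlFRO1*, *SlIRT2* and *SlIRT1*, with no overlap between neighbours. In Torin2-treated seedlings *SlFRO1* and *SlNRAMP1* overlapped, and so did *SlIRT2* and *SlIRT1*. Set against all genes tested, the mean level of *SlFER* was above that of 70.1% of them without and 52.1% with Torin2. The same share went from 38.7% to 21.2% for *SlNRAMP1* and from 19.6% to 27.5% for *SlFRO1*.

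**Figure D3:**
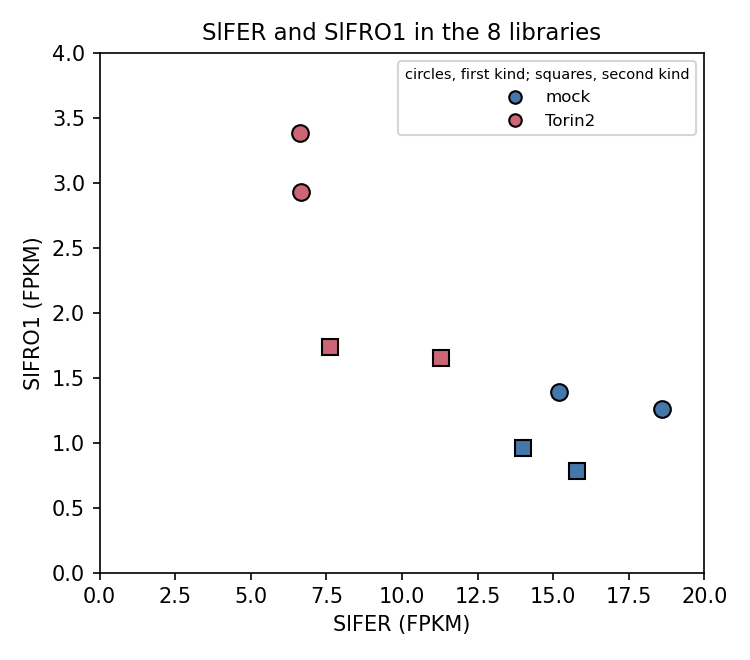
Level of *SlFER* (x axis, FPKM) against that of *SlFRO1* (y axis, FPKM), each point a library, with the condition by colour and the kind of library by shape. The mock libraries lie at 14.0 to 18.6 FPKM of *SlFER* and at most 1.39 FPKM of *SlFRO1*, and the Torin2 libraries at 6.61 to 11.3 FPKM of *SlFER* and at least 1.66 FPKM of *SlFRO1*.

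*SlIRT1* and *SlIRT2*, the importers for ferrous iron, have neighbouring identifiers on chromosome 2 and were found at very few fragments. *SlIRT2* gave 13, 8, 8 and 7 fragments in mock replicates 1 to 4, or 0.241, 0.145, 0.143 and 0.126 FPKM. In Torin2 replicates 1 to 4 it gave 10, 1, 1 and 1 fragments, or 0.180, 0.0186, 0.0193 and 0.0183 FPKM. Thus 3 of the 4 Torin2 libraries were under the floor of 3 fragments, whereas Torin2 replicate 1 lay within the mock range. *SlIRT2* had a log2 fold change of -0.82, with an interval from -1.79 to 0.14, and did not pass the test (limma adjusted p = 0.245, exact permutation p = 0.114). At such low levels the size of the change depended on the scale, with -0.14 for a pseudocount of 1 FPKM, -1.87 for 0.01 FPKM and -1.88 with limma-voom. Libraries of the first kind gave -1.29 and those of the second kind -0.36. Summed over libraries, 13 against 36 fragments gave a ratio of 0.369 per unit of depth (95% interval 0.180 to 0.713, exact, for counting error only). Without Torin2 replicate 1 the ratio was 0.115 (0.0226 to 0.364). That library was left out of the ratio because of its high value, so that this interval is no evidence of a fall. The fit without Torin2 replicate 1 gave a log2 fold change of -1.13 (limma adjusted p = 0.0860). This p was the lowest over all alternatives, where the highest was 0.412.

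*SlIRT1* was found in 3 libraries only, with 6 and 3 fragments in mock replicates 1 and 2 and 4 fragments in Torin2 replicate 2, or 0.119, 0.0581 and 0.0799 FPKM. It was listed at 0 in the other 5 libraries, where 3 fragments would be 0.0575 to 0.0620 FPKM. With 9 against 4 fragments the ratio of Torin2 to mock was 0.455 (95% interval 0.102 to 1.63), so that no difference was detectable at this depth. The gene did not pass the filter and was not tested. Fragments that could belong to either of 2 similar copies were not examined for this pair.

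Descriptions of other iron genes were read only from the study's table of regulated genes, which was chosen on these same libraries. The direction and the calls of these genes are thus not independent evidence. The share over all genes tested is no measure of chance for them. Outside the genes above, 2 genes of iron handling were described in that table, both as vacuolar iron transporters. In Arabidopsis this family moves iron into the vacuole. Both were called higher here, against 5.31% of all genes tested. *VTL1* (Solyc01g104780.3) rose from a mean of 1.24 to 4.14 FPKM (SDs 0.418 and 1.72, n = 4 each), or by 1.62 on the log2 scale (limma adjusted p = 0.00652). Solyc08g028970.3, described as vacuolar iron transporter-like protein 3, rose from a mean of 4.34 to 11.4 FPKM (SDs 1.41 and 5.78, n = 4 each), or by 1.29 (limma adjusted p = 0.0227). For both genes the 4 Torin2 libraries lay above the 4 mock libraries. In the first and second kinds of libraries *VTL1* was at 1.45 and 1.79 and Solyc08g028970.3 at 1.11 and 1.47 on the log2 scale. *VTL1* was called in every alternative. The call of Solyc08g028970.3 was lost with median-of-ratios or quantile scaling and without mock replicate 1, 2 or 4 or Torin2 replicate 1 or 3, where its log2 fold change was 0.998 to 1.36 and its adjusted p 0.046 to 0.124, the highest over all alternatives.

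Transporters of other nutrients were examined beside the iron genes. They came from the same table of genes regulated in these libraries, so that neither their direction nor their calls are independent evidence. The shares over all genes tested are no measure of chance for them. Of 3 such genes, 2 were called lower, where 3% of all genes tested were. *NRT3.2* (Solyc03g112100.3), described as a high-affinity nitrate transporter, fell from a mean of 155 to 65.3 FPKM (SDs 10.4 and 8.63, n = 4 each), with a log2 fold change of -1.25 (limma adjusted p = 0.000602). The sulfate transporter gene *SULTR1;3* (Solyc10g047170.2) fell from a mean of 11.5 to 4.59 FPKM (SDs 2.52 and 0.974, n = 4 each), with a log2 fold change of -1.30 (limma adjusted p = 0.00504). *NRT2.1* (Solyc06g074990.3), described as a putative high-affinity nitrate transporter, averaged 0.355 FPKM without and 0.0811 FPKM with Torin2 (SDs 0.174 and 0.0675, n = 4 each) and did not pass the test (limma adjusted p = 0.0697). *NRT2.1* was called in 5 alternatives, namely no filter, median-of-ratios scaling, quantile scaling, the kind of library as a covariate and limma-voom, with adjusted p-values from 0.0277 to 0.0485, and over all its alternatives these ran up to 0.193. For all 3 genes every Torin2 library lay below every mock library, as for 19.2% of all genes tested without regard to direction. Log2 fold changes in the first and second kinds of libraries were -1.38 and -1.12 for *NRT3.2*, -1.36 and -1.24 for *SULTR1;3*, and -1.73 and -0.92 for *NRT2.1*. The list held no phosphate transporter genes, which are given under other observations. Among those, *PT1* and *PHO1-H9* had lower means with Torin2 and were not called. *PHT1-4* went the other way, with a few fragments in each Torin2 library and none in the mock libraries.

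Markers of the root and the shoot could be read only from that same table, whose genes were chosen because they had changed in these libraries, so that a change of a marker was given by the choice. The 2 genes described as Casparian strip membrane protein 1, a protein of the root endodermis, were both called lower, against 3% of all genes tested, with log2 fold changes of -1.87 for Solyc02g067190.4 and -1.11 for Solyc09g010200.5 (limma adjusted p = 0.0139 and 0.0174). In the first and second kinds of libraries these were -2.52 and -1.23, and -1.46 and -0.76. The change of Solyc02g067190.4 was -0.51, and not called, with a pseudocount of 1 FPKM. The call of Solyc09g010200.5 was lost without mock replicate 4 or Torin2 replicate 2 or 4, and after a correction for gene length, where its log2 fold change was still -0.99 to -0.91, with adjusted p-values from 0.0342 to 0.078, the highest of its alternatives. The summed level of the 2 genes was 11.7 to 17.7 FPKM in the mock and 4.36 to 8.75 FPKM in the Torin2 libraries. Most of it came from Solyc09g010200.5, with a mock mean of 13.5 FPKM against 0.564 FPKM for Solyc02g067190.4. The latter held only 4, 1, 7 and 0 fragments in Torin2 replicates 1 to 4, near the floor of 3 fragments. A gene described as root hair specific 4, Solyc10g005190.1, which was picked after its values were seen, was found with 479 fragments over the mock and 18 over the Torin2 libraries. The single shoot marker with a description, Solyc02g085950.5 for the small chain of Rubisco, was at 791 to 3284 FPKM in the mock and 633 to 1572 FPKM in the Torin2 libraries, which overlap (limma adjusted p = 0.274). Within each kind of library both Torin2 libraries lay below both mock libraries, with log2 fold changes of -1.10 and -0.33. With the kind as a covariate the log2 fold change of -0.71 had a limma adjusted p of 0.0157. The kinds were set from the spread of these same libraries, so that this p tends to be too small. It is no separate evidence of a fall. Over the alternatives the limma adjusted p ran from 0.0157 to 0.616. The part of these markers in the falls of *SlFER* and *SlNRAMP1* was not tested. In libraries of seedlings, fewer root cells and less RNA per cell cannot be told apart.

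**Figure D4:**
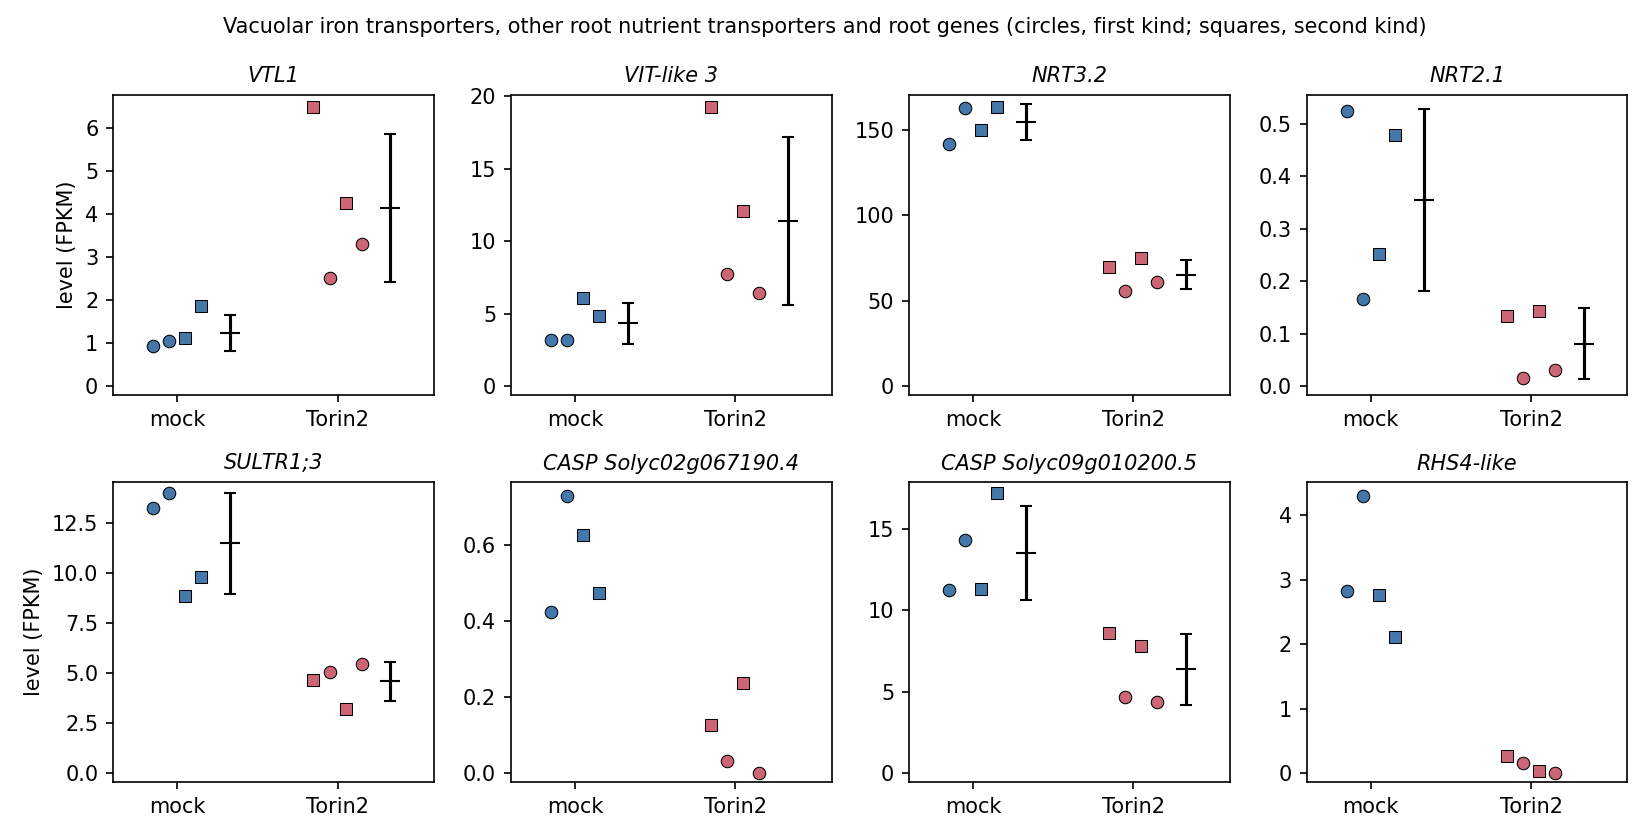
Level in FPKM (y axis) of the 2 vacuolar iron transporter genes, the 3 other nutrient transporter genes, the 2 Casparian strip genes (CASP) and the gene described as root hair specific 4 (RHS4) in each library. Points are libraries, with the mean ± SD of 4 libraries beside them where the bar stays above 0. The vacuolar iron transporter genes are higher, and the other 6 genes lower, in every Torin2 library than in any mock library.

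The genes with the most similar profile were sought among the 18546 genes that averaged 1 FPKM or more. The measure was the root mean square difference of the log2 values over the 8 libraries, each gene centred on its own mean. The difference between the conditions is part of such a profile, so that genes with a similar fold change lie near each other. Names were at hand only for genes of the study's table of regulated genes. Shared regulation was not tested. For *SlFER* the nearest were Solyc03g096960.4, with a difference of 0.136, *RD22* (Solyc05g015300.5), a gene for a BURP-domain protein, with 0.141, and Solyc07g008660.3, with 0.153. *SlNRAMP1* was nearest to *FLU* (Solyc06g008160.4), with 0.119, and to the ribosomal protein genes *RPL15* (Solyc06g064630.3) and *RPS3B* (Solyc07g041310.3), with 0.133 and 0.134. The profiles of *SlFER* and *SlNRAMP1* differed by 0.439. *SlNRAMP1* held rank 1520 among the profiles nearest to *SlFER*, and *SlFER* held rank 915 among those nearest to *SlNRAMP1*. The nearest profiles to *SlFRO1* were those of Solyc07g008320.3, at 0.0746, and Solyc01g100260.4, at 0.0764, which have no description here.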

How the data were processed

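The values were FPKM as the authors deposited them, 1 column for each of the 8 libraries. Per the study's methods, paired-end reads of 150 bp were aligned to SL4.0 with HISAT2, and HTSeq is among the tools named in the submitters' processing notes. The annotation release is not given in the sources used here. Every value was a whole number of fragments (within 0.01, with allowance for rounding) once each library was given 1 depth and each gene 1 length. This gave the fragments and depths, which set a floor of 3 fragments. Intervals of the fragment ratios cover counting error only, since fragments were summed over libraries and the spread between libraries was left out. Reads are not independent molecules, so that these intervals may be too narrow.

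The 22330 genes averaging 0.1 FPKM or more were fitted as log2(FPKM + 0.1) in limma 3.58.1 (R 4.3.3, trend, no covariate). Such fold changes understate the change of low genes. Calls used the study's cut-offs, an adjusted p of 0.05 (Benjamini-Hochberg) and a log2 fold change beyond -1 or 1. Other steps used Python 3.11.15 and scipy 1.17.1.

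The members and lists were chosen with earlier results of these data known. Named were the members, called genes of the iron list, the largest changes of the nutrient list and the 3 nearest profiles, of which 2 are printed for *SlFRO1*. The lists of iron, other nutrient, root marker and shoot marker genes were matched as words in the descriptions of 1997 regulated genes in the study's table, whose fold changes were not used. Alternatives covered the pseudocount (1 or 0.01 FPKM), the filter (none or 1 FPKM), median-of-ratios and quantile scaling, the replicate number as a block, the kind of library as a covariate, a correction for gene length in each library (loess, span 0.3), limma-voom on recovered fragments, no fold change cut-off, and each library left out. The kinds came from the spread of these same libraries, so that p-values with the kind as a covariate tend to be too small. No sequence was used.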

Additional observations from a re-analysis of the deposited data

Results flagged for a closer look

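In 2 of 34 groups, 2 for each of the 17 genes described, a single Torin2 library lay apart from the rest. Each group held 4 libraries of a condition, and chance alone gives about 1 in 20 groups, here 1.7. Dixon's ratio, which sets the gap beside the most distant library against the full spread of log2 values, was used. It was 1 for *SlIRT1*, because Torin2 replicate 2 held 4 fragments and the other 3 libraries none. It was 0.991 for *SlIRT2*, with 10 fragments in Torin2 replicate 1 and 1 fragment in each of the others.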

How the results depend on the processing

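Each gene below kept its direction in every fit. *SlFER* (main value -1.003) and *SlNRAMP1* (-1.28) lost their calls with a pseudocount of 1 FPKM, at -0.92 and -0.90, so that no member was then called (0 of the 2 called otherwise). With 1 library left out, *SlFER* ranged from -1.18 to -0.92, *SlNRAMP1* from -1.45 to -0.99, *SlFRO1* from 0.87 to 1.20 and *SlIRT2* from -1.13 to -0.69, and the number of members called from 0 to 3. *SlFRO1* (1.04) was called with a filter at 1 FPKM (1.04), with the kind of library as a covariate (1.04) and with limma-voom (1.11). It was below the fold change cut-off with a pseudocount of 1 FPKM (0.68) and with quantile scaling (0.79). The same held for median-of-ratios scaling (0.89) and the correction for gene length (0.89). Its limma adjusted p was under 0.05 in these fits. The iron list fell from 2 to 1 called with median-of-ratios and with quantile scaling, and ranged from 1 to 2 with 1 library left out. The nutrient list had 2 or 3 genes called in every alternative, 3 of them where *NRT2.1* passed. Over all genes, 1186 were called higher, 642 with a pseudocount of 1 FPKM, 768 with median-of-ratios and 736 with quantile scaling, and 663 to 1531 with 1 library left out. The 671 called lower became 444 with that pseudocount, 1011 with median-of-ratios scaling, 1134 without a fold change cut-off, and 490 to 793 with 1 library left out. Median-of-ratios scaling brought the median of all genes from 0.16 to 0.01, and *SlFER* was then at -1.16. Causes were not tested. The deviations of same-numbered libraries had correlations of -0.38, 0.38, 0.40 and -0.25 for replicates 1 to 4. So few values, of mixed sign and from deviations centred within each condition, cannot tell whether same-numbered libraries shared a batch. With the replicate block, 1235 genes were called higher and 674 lower, 2 members were called, and *SlFER* was at -1.003, *SlNRAMP1* at -1.28, *SlFRO1* at 1.04 and *SlIRT2* at -0.82. Depth limits *SlIRT1* and *SlIRT2*.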

Other observations

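Phosphate transporter genes of the study's table were looked at after their values were seen. *PT1* (Solyc03g005530.1) averaged 0.358 FPKM without and 0.124 FPKM with Torin2, with SDs of 0.146 and 0.0754, and the conditions did not overlap (n = 4 each, limma adjusted p = 0.121). *PHO1-H9* (Solyc02g088240.4) averaged 4.17 and 2.31 FPKM, with SDs of 1.43 and 0.895, and the conditions overlapped (n = 4 each, limma adjusted p = 0.116). *PHT1-4* (Solyc09g066410.3) was listed at 0 in the 4 mock libraries and had 2 to 8 fragments in each Torin2 library.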
